A study of Homo sapiens with 4 samples.

Results

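MIR17HG, DLEU2 and MIR22HG are long noncoding RNA (lncRNA) genes whose transcripts carry microRNAs linked to growth control: the miR-17-92 cluster, the miR-15a/16-1 pair and miR-22. They were chosen by name, as all rows of a lncRNA table whose name before the final number is one of these 3 symbols, and make up 3 of 46902 listed lncRNA genes. Their 111 isoform rows, among 104786 in all, divide into 16 of MIR17HG, 41 of DLEU2 and 54 of MIR22HG. The values come from strand-specific, paired-end RNA sequencing (reads of 150 bases, mRNA fraction) of 2 human cell populations, each represented by 2 libraries. The parent, MDA-MB-231, is an established triple-negative breast cancer line. MDA-MB-231-P3, called P3 below, is a highly metastatic subline of it that was obtained by 3 rounds of injection into the tail vein of mice, recovery of the cells that grew in the lung, and expansion in culture. No drug or genetic change distinguished the groups in the labels, which also leave unsaid whether the subline is a single clone and whether libraries of the same line had separate cultures as their source. P-values therefore reflect library-to-library spread alone, which could be purely technical.

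A microRNA host gene is transcribed into a long primary transcript, from which the enzyme Drosha cuts a hairpin in the nucleus and Dicer then cuts a mature microRNA that represses messenger RNAs through its seed, bases 2 to 8. The miR-17-92 cluster is a target of the transcription factor MYC and promotes proliferation in many tumours. The miR-15a/16-1 pair is lost with DLEU2 in chronic lymphocytic leukaemia and represses cyclins and BCL2. MiR-22 is described as a growth suppressor in some cancers, breast cancer included, and as a driver in others. Host RNA in a library is what was spliced or left uncut, and mature microRNAs, which are too short for such libraries, were not measured here.

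The sequences below are 9 mature microRNAs of the 3 hosts, the strands usually named as active for the miR-17-92 cluster, the miR-15a/16-1 pair and miR-22. They are shown because they are what these hosts are known for, with the seed in capitals (RefSeq, GRCh38.p14, 5′ to 3′). The 6 microRNAs shown for MIR17HG fall into 4 seed groups.
miR-17-5p: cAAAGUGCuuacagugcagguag
miR-20a-5p: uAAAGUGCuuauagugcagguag
miR-18a-5p: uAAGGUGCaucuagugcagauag
miR-19a-3p: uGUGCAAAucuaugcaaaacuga
miR-19b-3p: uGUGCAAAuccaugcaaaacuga
miR-92a-3p: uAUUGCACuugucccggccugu
The 2 microRNAs shown for DLEU2 share 1 seed. MIR3613, which the annotation also places within DLEU2 on the same strand, is not shown.
miR-15a-5p: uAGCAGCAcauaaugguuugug
miR-16-5p: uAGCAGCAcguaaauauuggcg
The microRNA shown for MIR22HG has a seed that occurs in no other mature sequence of the table.
miR-22-3p: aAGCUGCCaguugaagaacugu

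Counted from the 5′ end, miR-17-5p and miR-20a-5p match at 21 of 23 bases and differ by C1U and C12U, both outside the seed. The substitution that sets miR-18a-5p apart from them inside the seed is A4G relative to miR-17-5p. MiR-19a-3p and miR-19b-3p match at 22 of 23 bases. MiR-15a-5p and miR-16-5p match at 16 of 22 bases, with all 6 substitutions outside the seed. The seed of miR-15a and miR-16 is carried by 7 mature microRNAs in the table, that of miR-17 and miR-20a by 8. For 3 of the 9 the identical mature sequence also comes from another locus: miR-16-5p from MIR16-2, miR-19b-3p from MIR19B2 and miR-92a-3p from MIR92A2. For these 3, the host described here is not the only possible source; the table lists no other locus for the other 6.

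Where the microRNAs lie differs between the hosts in the GENCODE annotation of hg19. MIR17HG spans chromosome 13 from 91999940 to 92049846 on the plus strand, with 16 annotated transcripts, and its hairpins lie in order between 92002859 (MIR17) and 92003645 (MIR92A1). The MIR17 hairpin is exonic in 3 of these transcripts, intronic in 8 and outside the other 5. DLEU2 spans chromosome 13 from 50530806 to 50699856 on the minus strand, with 29 transcripts. Its MIR16-1 hairpin (50623109 to 50623197) is intronic in 15 of them, exonic in 0 and outside the remaining 14. The MIR15A hairpin (50623255 to 50623337) is intronic in 15, overlaps an exon or a transcript end only in part in 8 and lies outside 6. MIR22HG is the shortest locus, at chromosome 17 from 1614741 to 1620468 on the minus strand, and mature miR-22-3p (1617208 to 1617229) is exonic in 30 of its 32 transcripts. The summed levels of DLEU2 and MIR17HG can therefore include transcripts that do not span a hairpin, whereas nearly all annotated MIR22HG transcripts contain the microRNA in an exon. The isoform numbers of the table are not tied to coordinates or to these transcripts, so no single row could be assigned to a microRNA.

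Levels are in FPKM, a count of fragments scaled by transcript length and by library size, as deposited for each isoform and here summed per gene. FPKM listed over all isoforms summed to between 351135 and 500086 per library, lower in both P3 libraries, and read depth is unknown. The 3 hosts together made up 0.0135% and 0.0119% of that sum in the parent and 0.0159% and 0.0166% in P3. The table had rows for 0 of 11 protein-coding markers of MDA-MB-231 and for 0 of 6 markers of other lung cells, so the identity of the cells could not be checked by these genes. In such bulk samples fewer cells with a transcript and less RNA per cell cannot be told apart.

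MIR17HG was the most abundant of the 3 hosts, and its level was listed slightly higher in P3. It had 33.6 and 30.4 FPKM in the parental libraries and 34.7 and 41.5 FPKM in the P3 libraries. Both P3 libraries lay above both parental ones, but P3 replicate 1 exceeded parental replicate 1 by less than the parental libraries differed from each other. The means were 32.0 ± 2.30 FPKM in the parent and 38.1 ± 4.86 FPKM in P3 (SD, n = 2 each).

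DLEU2 was listed lower in P3, with the largest relative difference of the 3 hosts as deposited. It had 14.9 and 15.7 FPKM in the parental libraries and 10.3 and 9.58 FPKM in the P3 libraries. The lines did not overlap, and the libraries of each line lay close together, with means of 15.3 ± 0.559 and 9.94 ± 0.508 FPKM (SD, n = 2 each). The P3 mean was 0.648 times the parental mean.

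MIR22HG was also listed lower in P3 in FPKM as deposited, by a smaller step and with the closest replicates, but not relative to the listed FPKM sum. It had 13.7 and 13.5 FPKM in the parent and 10.8 and 10.9 FPKM in P3, without overlap. The means were 13.6 ± 0.159 and 10.8 ± 0.0276 FPKM (SD, n = 2 each), a ratio of 0.797. Per 100000 FPKM listed in a library, however, MIR22HG had 2.98 and 2.70 in the parent and 3.08 and 2.91 in P3, so that the lines overlapped. On that scale DLEU2 had 3.24 and 3.14 against 2.93 and 2.57, and MIR17HG had 7.31 and 6.07 against 9.88 and 11.1, without overlap. The direction of MIR22HG thus depended on how the libraries were scaled, and those of DLEU2 and MIR17HG did not.

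**Figure D1:**
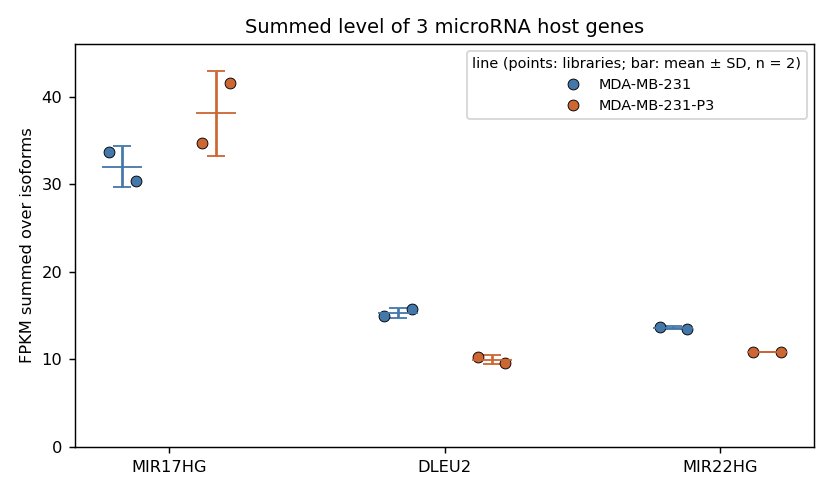
FPKM summed over the isoforms of each host gene (y axis) for MIR17HG, DLEU2 and MIR22HG (x axis). Points are libraries, and the line and bar give the mean ± SD of each cell line (n = 2). The P3 points lie above the parental points for MIR17HG (34.7 and 41.5 against 33.6 and 30.4 FPKM) and below them for DLEU2 and MIR22HG, the last of which overlaps when scaled to the listed FPKM sum.

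None of the 3 differences passed the test across all genes. Genes with a mean of at least 0.5 FPKM were compared on log2(FPKM + 0.5) with limma, a linear model that borrows the spread across all 6444 tested genes, with Benjamini-Hochberg adjustment of the p-values. On this scale, which understates changes of low values, DLEU2 differed by -0.60 (P3 minus parent, SE 0.25, 95% interval -1.26 to 0.06, limma adjusted p = 0.350). MIR22HG differed by -0.31 (SE 0.24, 95% interval -0.96 to 0.33, limma adjusted p = 0.549). MIR17HG differed by 0.24 (SE 0.26, 95% interval -0.46 to 0.95, limma adjusted p = 0.662). With each library scaled to the same listed sum, a setting added after the data were seen, the differences were -0.21 for DLEU2, 0.08 for MIR22HG and 0.65 for MIR17HG (limma adjusted p = 0.684, 0.888 and 0.304). That scaling moved the median of all tested genes from 0.09 to 0.38, and relative to this median the 3 differences were -0.59, -0.30 and 0.27. Limma called 0 of the 3, where it called 0.0621% of all tested genes. At an unadjusted p under 0.05 it also gave 0 of the 3, where 15.2% of all genes reached it. This count depended on the setting: DLEU2 had an unadjusted limma p of 0.0438 with centring, and without the filter DLEU2 had 0.00937 and MIR22HG 0.0350.

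Lines that did not overlap were common in this table. Both P3 libraries lay above both parental ones in 28.9% of tested genes, as for MIR17HG, and below them in 21.4%, as for DLEU2 and MIR22HG. The absolute difference of DLEU2 was larger than that of 57.3% of tested genes, that of MIR22HG larger than 32.8% and that of MIR17HG larger than 25.7%. By contrast, all 3 hosts were among the more abundant lncRNAs. Their mean level over the 4 libraries exceeded that of 96.6% of tested genes for MIR17HG, 92.3% for DLEU2 and 92.0% for MIR22HG.

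The order of the hosts within a library was the same at the top and differed below it. MIR17HG was highest in each of the 4 libraries. DLEU2 stood above MIR22HG in both parental libraries and below it in both P3 libraries, with DLEU2 to MIR22HG ratios of 1.09 and 1.17 in the parent and 0.953 and 0.883 in P3. The values of DLEU2 and MIR22HG did not overlap in either line, but in P3 the means lay close, at 9.94 ± 0.508 and 10.8 ± 0.0276 FPKM (SD, n = 2 each). Ratios within a library do not depend on how libraries are scaled to each other, and they were examined after the summed levels had been seen. The ratio of MIR17HG to DLEU2 was 2.25 and 1.93 in the parent and 3.37 and 4.34 in P3. That of MIR17HG to MIR22HG was 2.45 and 2.25 in the parent and 3.21 and 3.83 in P3. For each of these 3 ratios the lines did not overlap, and the two-sided exact permutation p was 0.333, the smallest that 2 libraries against 2 allow. For the ratios of MIR17HG to DLEU2 and to MIR22HG this outcome was fixed by the summed levels. MIR17HG was higher in both P3 libraries, and DLEU2 and MIR22HG were lower in both. These ratios therefore add no separate evidence of a difference.

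The hosts were not all built from isoforms in the same way. MIR17HG was dominated by 2 of its 16 rows, and DLEU2 was spread over many. MIR22HG lay between, but close to DLEU2 in parental replicate 2 and P3 replicate 1. The effective number of isoforms, the inverse of the summed squared shares, was 2.63, 2.79, 2.93 and 2.49 for MIR17HG in parental replicates 1 and 2 and P3 replicates 1 and 2. For DLEU2 it was 11.5, 7.37, 7.85 and 10.4, and for MIR22HG 7.25, 7.20, 7.67 and 7.16, in the same order. The number differed more between DLEU2 libraries of 1 line than between the lines. A mean of 0.5 FPKM, or a share of 5% in any library, was reached by 5 rows of MIR17HG, 15 of DLEU2 and 10 of MIR22HG. Of the rest, 6, 20 and 35 rows stayed under 0.05 FPKM in all 4 libraries.

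In MIR17HG the isoforms MIR17HG:17 and MIR17HG:12 together made up most of the level. MIR17HG:17 had 18.6 and 13.7 FPKM in the parent and 16.0 and 17.2 FPKM in P3, so the lines overlapped. Its share of the gene was 55.4% and 45.2% in the parent and 46.1% and 41.5% in P3, a difference of -6.54 percentage points (two-sided exact permutation p = 0.667, n = 2 each). MIR17HG:12 had 7.68 and 11.3 FPKM in the parent and 11.9 and 19.8 FPKM in P3. It was higher in both P3 libraries, as were 27.3% of tested isoforms, but by share the lines overlapped. Its log2 difference was 0.70 (SE 0.41, limma adjusted p = 0.526). MIR17HG:12 was the top isoform of P3 replicate 2 with 47.7% of the gene, and MIR17HG:17 was the top isoform of the other 3 libraries. The library with the highest MIR17HG sum was thus also the one with the most MIR17HG:12.

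Below these, MIR17HG:14 was listed lower and MIR17HG:22 higher in P3, neither passing the limma test (adjusted p = 0.308 and 0.323). MIR17HG:14 had 2.28 and 3.88 FPKM in the parent and 0.640 and 0.307 FPKM in P3, and its share was 6.78% and 12.8% against 1.84% and 0.740%. MIR17HG:22 had 0.224 and 0.390 FPKM in the parent and 2.01 and 1.29 FPKM in P3, with shares of 0.666% and 1.28% against 5.80% and 3.12%. In both cases the lines did not overlap, which 20.7% of tested isoforms showed with P3 lower and 27.3% with P3 higher. Some rows too low to be tested did not overlap either, such as MIR17HG:19, at 0.0600 and 0.0937 against 0.518 and 0.490 FPKM, picked after its values were seen. MIR17HG:2 had the largest ratio between libraries of a line among the 5 named rows, with 4.23 FPKM in parental replicate 1, 0.0766 FPKM in parental replicate 2, and 2.97 and 1.74 FPKM in P3.

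In DLEU2 no isoform led throughout. The top isoform was DLEU2:17 in parental replicate 1, DLEU2:15 in parental replicate 2 and P3 replicate 2, and DLEU2:37 in P3 replicate 1, with shares of 13.2%, 22.3%, 17.3% and 23.9%. DLEU2:15, highest on average, had 0.259 and 3.50 FPKM in the parent and 1.26 and 1.65 FPKM in P3. Its share differed by 2.76 percentage points (two-sided exact permutation p = 1.0, n = 2 each) and by -7.50 points without parental replicate 1. The parental libraries thus lay on either side of both P3 libraries.

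In FPKM the lines did not overlap in 1 of the 9 tested DLEU2 rows, DLEU2:17, where 27.3% of all tested isoforms lay wholly above and 20.7% wholly below in P3. It had 1.97 and 2.74 FPKM in the parent and 0.0156 and 0.544 FPKM in P3. Its share was 13.2% and 17.4% in the parent and 0.152% and 5.68% in P3, without overlap. Other rows of similar size did not separate the lines in FPKM. DLEU2:43 had 1.03 and 2.02 FPKM in the parent and 1.46 and 1.15 FPKM in P3, and DLEU2:36 had 1.23 and 0.836 against 1.14 and 0.905 FPKM. DLEU2:35 had 1.40 and 0.688 against 0.850 and 1.13 FPKM, and DLEU2:5 had 0.756 and 2.28 against 0.425 and 1.13 FPKM. By share, however, DLEU2:36 was higher in both P3 libraries, at 8.22% and 5.32% against 11.1% and 9.44%. The same held for DLEU2:37, at 5.64% and 3.24% against 23.9% and 6.12%. In FPKM the lines overlapped for both rows, while the DLEU2 sum, by which a share is divided, was lower in P3. How often isoforms of other genes separate by share was not counted.

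Several DLEU2 rows were carried by a single library. DLEU2:37 had 2.46 FPKM in P3 replicate 1 and between 0.509 and 0.842 FPKM in the other libraries. DLEU2:8 had 1.96 FPKM in parental replicate 1 and at most 0.256 FPKM elsewhere, and DLEU2:24 had 1.48 FPKM there and at most 0.392 FPKM elsewhere. DLEU2:23 (1.27 FPKM) and DLEU2:6 (1.08 FPKM) were likewise highest in parental replicate 1, at no more than 0.147 and 0.200 FPKM in the others. DLEU2:42 had 1.43 FPKM in parental replicate 2, and DLEU2:20 had 1.06 FPKM in P3 replicate 1 and was listed at 0 in the other 3. The rows DLEU2:11 and DLEU2:38 held equal values in all 4 libraries, 0.625, 0.703, near 0 and 0.529 FPKM. Counted once, they left DLEU2 with a log2 difference of -0.58 (limma adjusted p = 0.367), against -0.60.

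In MIR22HG the isoform MIR22HG:36 was listed lower in both P3 libraries in FPKM as deposited. It had 3.24 and 2.90 FPKM in the parent and 2.12 and 2.06 FPKM in P3. Its share was 23.7% and 21.5% in the parent and 19.6% and 18.97% in P3, a difference of -3.33 percentage points (two-sided exact permutation p = 0.333, n = 2 each, the smallest possible). MIR22HG:20 was also without overlap, at 2.31 and 1.91 against 1.71 and 1.01 FPKM. Of all tested isoforms, 20.7% lay wholly lower in P3. Relative to the listed FPKM sum, the lines overlapped for both MIR22HG:36 and MIR22HG:20. MIR22HG:28 overlapped, at 1.86 and 1.35 against 1.89 and 1.45 FPKM.

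The remaining named MIR22HG rows varied mostly within the lines. MIR22HG:37 was near 0 in parental replicate 1 and had 1.68, 1.47 and 1.63 FPKM in the other libraries. Its share was near 0 and 12.5% in the parent and 13.6% and 15.0% in P3, without overlap. In FPKM the lines overlapped for MIR22HG:37, while the MIR22HG sum as deposited was lower in P3. MIR22HG:4 had 2.32 FPKM in P3 replicate 2, where it was the top isoform with 21.4%, and at most 0.107 FPKM elsewhere. MIR22HG:13 had 0.861 and 1.59 against 1.08 and 0.432 FPKM. MIR22HG:38 had 0.571 and 2.20 against 0.432 and 0.726 FPKM. MIR22HG:6 and MIR22HG:7 were highest in parental replicate 1, at 1.59 and 1.58 FPKM, and MIR22HG:3 passed a share of 5% only in parental replicate 2, at 0.997 FPKM. A value at or near 0 may reflect a split between isoforms that could not be estimated.

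**Figure D2:**
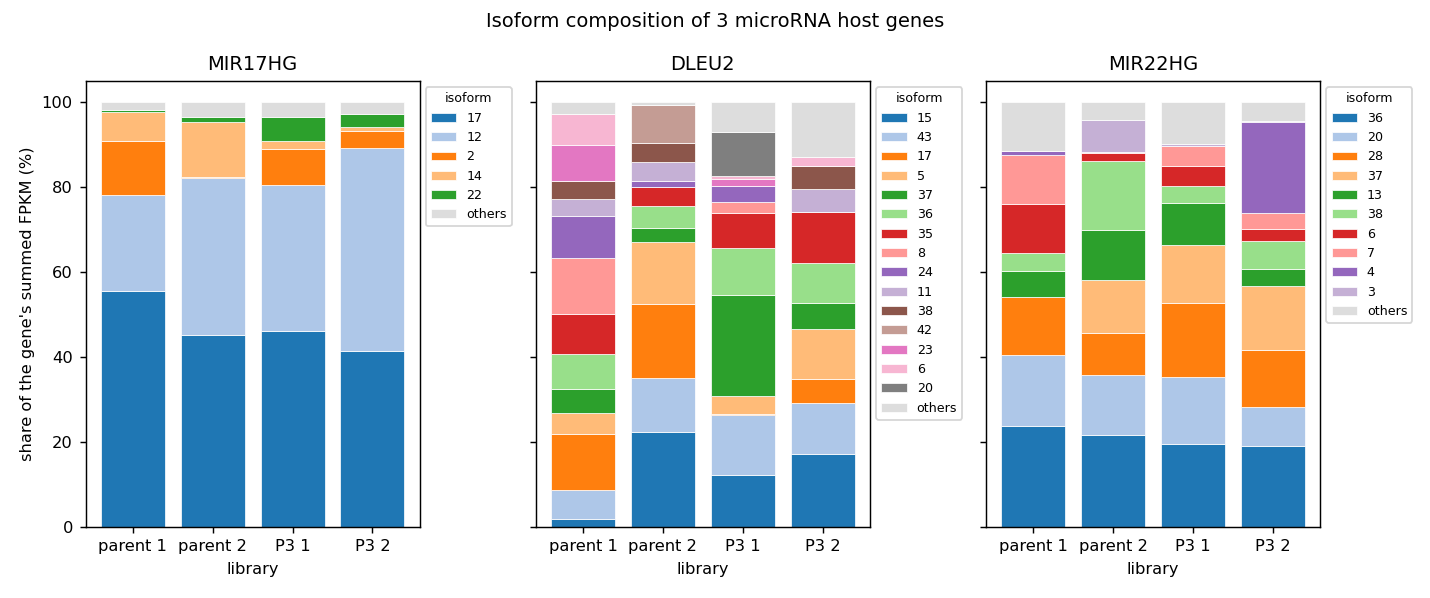
Share of each host's summed FPKM (y axis, %) held by its named isoforms in each library (x axis, parent and P3 replicates), with isoform numbers as in the table and all remaining rows in grey. MIR17HG:17 and MIR17HG:12 fill most of each MIR17HG bar, whereas the DLEU2 bars differ between libraries of the same line, as with DLEU2:15 at 1.73% and 22.3% in the parent.

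The whole isoform composition was then compared between libraries as the percentage of a gene's FPKM that is assigned to another isoform. For DLEU2 this distance was 50.04% between the parental libraries and 42.1% between the P3 libraries, and 30.9% to 55.6% over the 4 pairs of different lines. For MIR22HG the replicate pairs stood at 38.3% (parent) and 27.5% (P3), and the pairs of different lines ranged from 24.4% to 39.5%. MIR17HG had the smallest distances, 23.5% and 13.8% for the replicate pairs and 15.8% to 29.5% for the others. In none of the 3 hosts did every pair of different lines lie farther apart than both replicate pairs, so no change in overall composition beyond replicate spread was detectable. The 795 tested genes with at least 10 isoform rows had median distances of 40.3% and 35.0% within the lines. The sum of DLEU2 was thus listed with an SD of 0.559 FPKM in the parent although 50.04% of it sat on different rows.

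**Figure D3:**
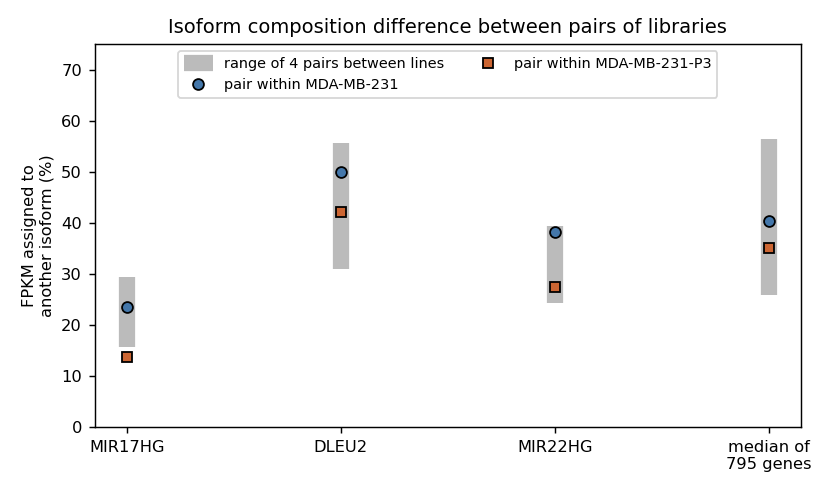
Percentage of a gene's summed FPKM assigned to another isoform (y axis) between pairs of libraries, for the 3 hosts and as the median of 795 tested genes with at least 10 isoform rows (x axis). Circles and squares are the replicate pairs of the parent and of P3, and the grey bar is the range of the 4 pairs between the lines. The replicate pairs of DLEU2 (50.04% and 42.1%) and MIR22HG (38.3% and 27.5%) lie within the grey range.

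Of the 111 isoform rows, 23 passed the filter of a mean of 0.5 FPKM over all libraries and were tested with the other isoforms: 5 of MIR17HG, 9 of DLEU2 and 9 of MIR22HG. Limma called 0 of the 23, where it called 0.0% of 8432 tested isoforms. An unadjusted p under 0.05 was reached by 3 of the 23, beside 13.3% of all isoforms. These were MIR17HG:14, which differed by -1.86 on the log2 scale (SE 0.39, limma adjusted p = 0.308), DLEU2:17, by -1.95 (SE 0.47, limma adjusted p = 0.321), and MIR17HG:22, by 1.40 (SE 0.36, limma adjusted p = 0.323). They are named here because their p-values were the smallest. Each passed the filter through the line where it was higher. In the other line the means were 0.473 FPKM for MIR17HG:14, 0.280 FPKM for DLEU2:17 and 0.307 FPKM for MIR17HG:22. Rows that low in both lines were not tested, so the filter favours a large difference in such rows. Both P3 libraries lay above both parental ones for 2 of the 23 isoforms and below them for 4, where 27.3% and 20.7% of all isoforms did so. The other 17 isoforms overlapped between the lines.

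**Figure D4:**
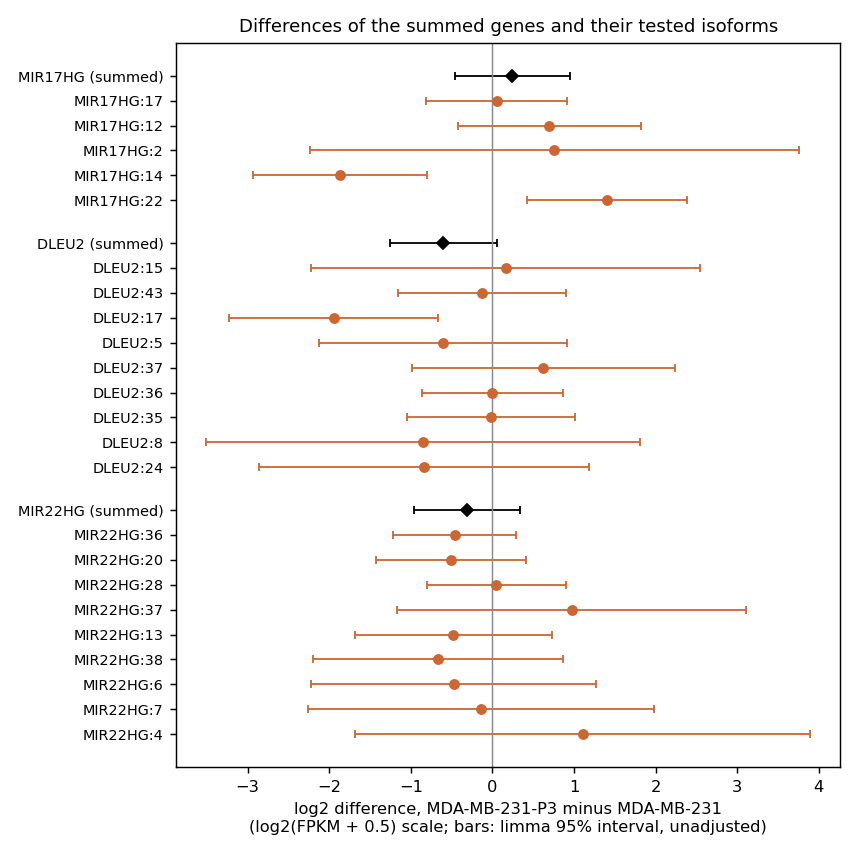
Log2 difference of P3 minus parent (x axis, log2(FPKM + 0.5) scale) for the summed hosts (black diamonds) and their 23 tested isoforms (orange points), with unadjusted 95% limma intervals. Intervals of MIR17HG:14 and DLEU2:17 lie below 0 and that of MIR17HG:22 lies above it, and those of the 3 summed hosts include 0. MIR17HG:14, DLEU2:17 and MIR17HG:22 each passed the filter through the line where they were higher.

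Other microRNA hosts were split in direction. Of 52 listed names, 42 had rows and 21 were tested as summed genes, the 3 hosts included. Of these, 11 had a positive and 10 a negative difference, and the median was 0.15. Over all tested genes the split was 3524 positive to 2920 negative, and the median 0.09. Limma called 0 of the 21 (0.0621% of all genes), and 6 had an unadjusted p under 0.05, 5 of them higher and 1 lower in P3 (15.2% of all genes in either direction). The lines did not overlap for 9 hosts that were higher and 6 that were lower in P3, beside 28.9% and 21.4% of all genes. Without MIR17HG, DLEU2 and MIR22HG, 18 hosts remained, 10 positive and 8 negative with a median of 0.20, and the lines did not overlap for 8 that were higher and 4 that were lower. Scaled to the listed FPKM sum, the 21 hosts split into 14 positive and 7 negative, and all tested genes into 4488 and 1956. The most abundant were MIR4435-2HG, at 185 and 192 FPKM in the parent and 119 and 147 FPKM in P3, MIR3681HG, at 69.2 and 61.2 against 38.0 and 35.2 FPKM, and PVT1, at 58.4 and 50.4 against 53.3 and 39.7 FPKM. MIR4435-2HG shares near-identical sequence with CYTOR, so its value is uncertain. MIR3681HG had the lowest difference, at -0.82 (SE 0.25, limma adjusted p = 0.290), followed by MIR181A2HG, at -0.72 (SE 0.40, limma adjusted p = 0.458), and DLEU2.

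The 2 largest positive differences in the list were in hosts with low levels in the parent, a pattern that the filter builds in. A host with a parental mean under 0.5 FPKM was tested only if its P3 mean was higher. Parental means of 0.230, 0.0777 and 0.149 FPKM were listed for MIR3142HG, MIR193BHG and MIR210HG. These are among the hosts counted above as higher in P3 at an unadjusted limma p under 0.05. FTX and MIR100HG were counted there too, but their parental means of 7.15 and 23.2 FPKM passed the filter level without P3. FTX differed by 1.24 (SE 0.35, limma adjusted p = 0.282) and MIR100HG by 0.87 (SE 0.24, limma adjusted p = 0.282). MIR3142HG, a host of miR-146a, had 0.257 and 0.202 FPKM in the parent and 2.60 and 2.99 FPKM in P3 (log2 difference 2.17, SE 0.28, limma adjusted p = 0.213). MIR193BHG had 0.142 and 0.0134 against 1.12 and 1.78 FPKM (log2 difference 1.74, SE 0.40, limma adjusted p = 0.268). In absolute FPKM both lay below MIR17HG, DLEU2 and MIR22HG.

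**Figure D5:**
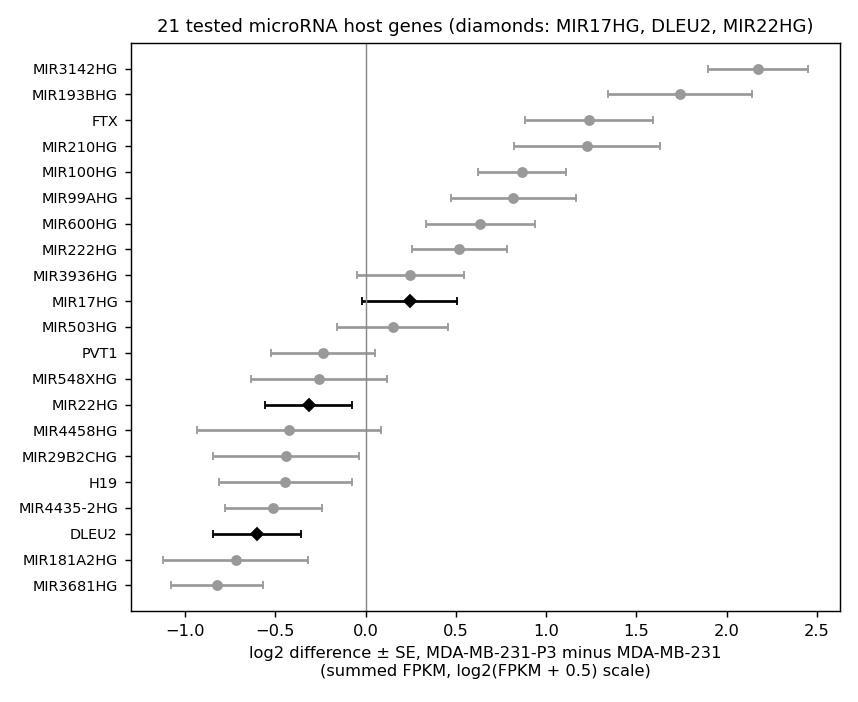
Log2 difference of P3 minus parent ± SE (x axis, summed FPKM on the log2(FPKM + 0.5) scale) for the 21 tested microRNA host genes (y axis), in order of the difference. Black diamonds mark MIR17HG (0.24), MIR22HG (-0.31, or 0.08 when scaled to the listed FPKM sum) and DLEU2 (-0.60), which lie inside the range from MIR3681HG (-0.82) to MIR3142HG (2.17).

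Among lncRNAs named for the neighbourhood of the 3 loci, 5 passed the filter. DLEU1, which overlaps DLEU2 on the opposite strand, had 19.8 and 17.7 FPKM in the parent and 19.5 and 18.4 FPKM in P3 (log2 difference 0.02, SE 0.25, limma adjusted p = 0.980). In FPKM as deposited, the lines overlapped in DLEU1 and not in DLEU2. Relative to the listed FPKM sum, DLEU1 did not overlap either and was higher in both P3 libraries. Whether reads were assigned by strand is not given in the sources used here, and without it reads from overlapping parts of these genes could not be told apart. DLEU7-AS1 overlapped too, at 0.509 and 1.31 against 1.14 and 0.687 FPKM. The genes lnc-RNASEH2B-4 (1.48 and 0.575 against 2.57 and 1.98 FPKM) and lnc-RNASEH2B-10 (1.09 and 0.570 against 1.59 and 1.95 FPKM) were higher in both P3 libraries. The gene lnc-WDR81-5, named for the protein-coding gene that overlaps MIR22HG on the opposite strand, had 2.65 and 0.803 FPKM in the parent and was listed at 0 in both P3 libraries. None was called, and the limma adjusted p of lnc-WDR81-5 was 0.276. That gene passed the filter through its parental values alone. Of all tested genes, both P3 libraries lay above both parental ones in 28.9% and below them in 21.4%.

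The lncRNAs most like each host in level were found by the root mean square difference of log2(FPKM + 0.5) over the 4 libraries, among 6443 other tested genes. For DLEU2 they were lnc-CNTRL-4 (0.059), at 15.8 and 14.9 against 10.2 and 9.35 FPKM, and MIR22HG (0.153). For MIR22HG they were lnc-SMIM11B-8 (0.075) and lnc-RSPH10B2-1 (0.096), and for MIR17HG lnc-PMM2-6 (0.113) and FLG-AS1 (0.176). At a wider limit than the distances of these named genes, 116 genes lay within 0.5 of DLEU2, 138 of MIR22HG and 49 of MIR17HG. With only 4 libraries such likeness is a weak description.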

How the data were processed

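Per the labels' protocols, the authors aligned strand-specific reads to hg19 with HISAT2 and deposited FPKM values, here 1 per lncRNA isoform. The submitters' processing notes also name StringTie. Tool versions, the source of the isoform models and how reads were split among isoforms are not stated in what was used here. Per-sample files equalled the series table in all 104786 rows. Depth is unknown, so no counting interval is given.

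Isoform FPKM were summed per gene. Features with a mean of at least 0.5 FPKM entered limma 3.58.1 as log2(FPKM + 0.5) (R 4.3.3; lmFit, eBayes with an intensity trend, two-sided, no block) and Benjamini-Hochberg adjustment over all features, threshold 0.05. The code was tested on simulated data. Shares and ratios used exact permutation over libraries. Named isoforms have a mean of at least 0.5 FPKM or a share of 5% in any library. Named list hosts are the 3 most abundant, the 2 largest differences in each direction and those higher at an unadjusted limma p under 0.05. Named neighbours are those that passed the filter, and alike genes the 2 nearest per host. Members, lists and tests were chosen with earlier results of these data known.

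MicroRNA hairpins (for miR-22 the mature sequence) were matched exactly to hg19 and placed in GENCODE release 44 lifted to that build. Alternatives were a pseudocount of 0.1 or 1, a minimum of 1 FPKM or none, centring, quantile normalization, no trend, a replicate block, each library left out, scaling to the listed FPKM sum, and equal isoform rows counted once, the last 2 and the ratios chosen after seeing the data. Python 3.11.15, numpy 2.4.6, pandas 2.3.3 and matplotlib 3.10.9 were used.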

Additional observations from a re-analysis of the deposited data

How the results depend on the processing

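No summed difference was called in any of 14 other settings. MIR17HG ranged from 0.12 to 0.65, DLEU2 from -0.69 to -0.21 and MIR22HG from -0.40 to 0.08, MIR22HG turning positive (0.076) only with scaling to the listed FPKM sum, which also moved the microRNA host median from 0.15 to 0.55. That scaling called 3 genes higher and 2 lower, against 2 and 2. The median of all tested genes was 0.09 as deposited and -0.03 with quantile normalization. Relative to it, DLEU2 differed by -0.69 and -0.60, MIR22HG by -0.41 and -0.30, and MIR17HG by 0.15 and 0.29. No member isoform was called in any setting. MIR17HG:14, DLEU2:17 and MIR17HG:22 kept their direction wherever they were tested. Their lines did not overlap, so leaving out a library or changing the pseudocount could not have reversed it. Leading isoform shares differed by -11.7 to -1.41 points for MIR17HG, -7.50 to 13.0 for DLEU2 and -4.39 to -2.27 for MIR22HG without single libraries.

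Over all genes, the 4 calls became 0 with a pseudocount of 1, without the filter, without the trend and without any single library, and 2 with quantile normalization. Isoform calls went from 0 to 6 with a minimum of 1 FPKM. The microRNA host median was -0.042 with that minimum (18 hosts tested) and -0.024 to 0.317 without single libraries, leaving out parental replicate 2 and replicate 1 respectively. The cause was not tested. Labels number the replicates but do not say that a number pairs libraries. Deviations of same-numbered libraries correlated at 0.078 over genes, and with the replicate number as a block 0 genes and 0 isoforms were called and 887 genes had an unadjusted p under 0.05, against 978. Unknown depth limits what can be said of isoforms near 0.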
